A study of Mus musculus with 8 samples.

Results

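The T-box factors of mesoderm and limb were read here as 9 mouse genes, Tbx1, Tbx2, Tbx3, Tbx4, Tbx5, Tbx6, Tbx15, Tbx18 and Tbx20. They are part of an array study of 3 cultured cell types. Every probe set that the array annotation assigns to a single gene was kept where that gene was 1 of the 9. This gave 19 probe sets of the 34945 with a single gene, and 9 of 18193 genes, and none of the 9 lacked a probe set. A probe set is the group of short oligonucleotides on the array that reports on a transcript. The values are deposited probe set intensities, given here as log2(intensity + 16) after quantile normalization, so that fold changes of dim probe sets are understated.

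MEF (2 arrays) were primary mouse embryonic fibroblasts, a mixed culture of connective tissue cells grown in medium with fetal bovine serum. NPC (3 arrays) were neural precursor cells made in culture from ES cells, by way of embryoid bodies and a selection medium, and then kept in FGF2 and EGF (written EGF2 in the labels). The labels describe them as uniform for nestin and Sox2. ES (3 arrays) were V6.5 murine ES cells, which are pluripotent cultured cells derived from the early embryo. They were grown on irradiated MEF feeders with leukemia inhibitory factor and then passaged without feeders on gelatin. NPC and ES are labelled wt, as is the MEF group, and no other allele or agent is named. The labels give no age or stage of the embryos behind MEF. Whether replicate arrays were made from separate cultures is not stated, so the p-values cover array-to-array spread that may be technical.

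T-box proteins are transcription factors that share a DNA-binding domain, the T-box, and act as activators or repressors during the laying out of mesoderm, limbs, heart and pharynx. Tbx4 and Tbx5 are the factors of hindlimb and forelimb, Tbx15 and Tbx18 act in the mesenchyme of limb, trunk and somites, and Tbx2 and Tbx3 are repressors. Tbx1 acts in the pharyngeal region, Tbx6 in the paraxial mesoderm and Tbx20 in the heart. None of the 3 cultures is a limb or a mesodermal tissue of a staged embryo, so the levels below are those of cultured cells.

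The defining markers of ES cells and MEF went with the labels. Pou5f1, Nanog and Zfp42 were above the level of silent genes on every ES array and on all arrays of neither other group, and Col1a1, Col1a2 and Thy1 summed to an intensity of 19781 to 20040 on MEF arrays against 27.5 to 49.0 on NPC arrays and 199.9 to 209.8 on ES arrays. Nes, Sox2, Fabp7 and Olig2, markers of neural precursors, were all above it on every NPC array and summed to 10797 to 16808 there, but Nes, Sox2 and Fabp7 were also above it on all MEF arrays (482.4 to 491.7 in sum), and Nes, Sox2 and Olig2 on all ES arrays (4083 to 4735). The level of silent genes is the 95th percentile of 78 probe sets for olfactory and vomeronasal receptor genes, and it lay between 4.95 and 5.11 on the 8 arrays. NPC 1 stood apart, correlating at 0.966 and 0.969 with NPC 2 and NPC 3, which correlated at 0.988 with each other. For most of the members' differences printed below that rest on NPC, a value without NPC 1 is also given. Precision is limited by the few arrays per group.

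A gene is described by its brightest probe set over the 8 arrays. A call needed a limma adjusted p below 0.05 together with a log2 difference of 1 or more in either direction. Tbx15 and Tbx18 were higher in both MEF and NPC than in ES cells. Tbx3 was lower in NPC and, by a margin that depends on the scaling, in MEF than in ES cells, and Tbx4 was higher in MEF than in NPC or ES cells. Tbx1, Tbx2, Tbx5, Tbx6 and Tbx20 were not called by their brightest probe set in any of the 3 comparisons. Of the 9 genes, 5 had a probe set above the level of silent genes on both MEF arrays (Tbx3, Tbx4, Tbx5, Tbx15 and Tbx18), 2 on all NPC arrays (Tbx15 and Tbx18) and 2 on all ES arrays (Tbx3 and Tbx6). The share of all genes above that level was not determined, so these counts show no trait of the family. A group with fewer arrays, or a gene with more probe sets, passes more easily.

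**Figure D1:**
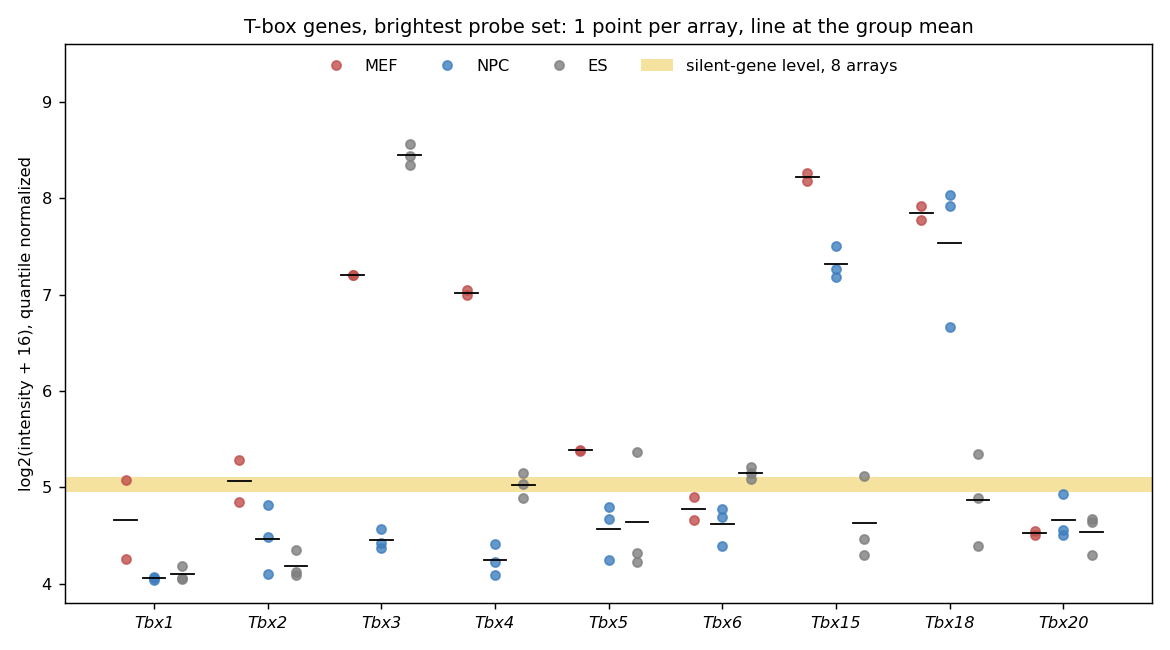
The brightest probe set of each of the 9 T-box genes is plotted as log2(intensity + 16), with 1 point per array, a line at the group mean and a band for the level of silent genes on the 8 arrays (4.95 to 5.11). Tbx3 stands highest on the ES arrays (8.34 to 8.57), Tbx4 on the MEF arrays (6.99 and 7.04), and Tbx15 and Tbx18 stand above the band on all MEF and NPC arrays. Tbx1, Tbx2, Tbx5, Tbx6 and Tbx20 lie near the band or below it.

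The plot of levels by array shows 4 genes that rise above the band of silent genes by more than 1 log2 unit in some group, and 5 that do not. Against the series as a whole the counts read as follows. In NPC compared with ES cells, 2 of 9 genes were called higher (Tbx15 and Tbx18) and 1 lower (Tbx3), where 10.0% of all genes were called higher and 12.9% lower. For MEF against ES cells, 3 of 9 were higher (Tbx4, Tbx15 and Tbx18) and 1 lower (Tbx3), against 12.2% and 12.8% of all genes. For MEF against NPC, 2 were higher (Tbx3 and Tbx4) and 0 lower, against 10.5% and 7.95%. At an unadjusted p below 0.05 alone, limma gave 2 higher and 3 lower in NPC compared with ES cells (23.1% and 28.9% of all genes), 6 higher and 1 lower in MEF compared with ES cells (23.5% and 28.1%), and 6 higher and 0 lower in MEF compared with NPC (22.4% and 23.2%). The list is short, and these counts are a description. The median log2 difference of the 9 genes was -0.04 in NPC compared with ES cells, where that of all genes was -0.05. It was 0.75 in MEF compared with ES cells, against -0.04 for all genes, and 0.61 in MEF compared with NPC, against -0.01. Without NPC 1 the members' medians were -0.05, 0.75 and 0.62 in the same order of comparisons. Each of these comparisons shares arrays with the others.

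Tbx15, in mice a factor for the skeleton of limb and skull and for the pigment border of the trunk skin, had its highest values in MEF. Its probe set 1418755_at had log2 values of 8.18 and 8.26 on the MEF arrays, 7.19, 7.50 and 7.27 on the NPC arrays, and 5.12, 4.46 and 4.30 on the ES arrays. As deposited, the intensities were 434.8 and 462.6 in MEF, 117.2, 129.3 and 119.5 in NPC, and 19.2, 5.54 and 3.43 in ES cells. Deposited MEF arrays were brighter as a whole, with trimmed means of 232.4 and 231.9 against 110.9 to 152.6 on the other arrays. The deposited values of Tbx3 and Tbx4 below carry the same difference. The 3 groups did not overlap, and among ES arrays ES 1 alone was above the level of silent genes. The log2 difference was 3.59 ± 0.24 (SE) in MEF compared with ES cells, or 12.1-fold (limma adjusted p = 2.82e-06). It was 2.69 ± 0.22 in NPC compared with ES cells, or 6.47-fold (limma adjusted p = 7.71e-06), and 2.78 without NPC 1. MEF stood 0.90 ± 0.24 above NPC (limma adjusted p = 0.0159), under the minimum difference for a call, and 0.84 without NPC 1. Without scaling between arrays that difference was 1.75, and with median centring 1.41, both called.

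The second probe set of Tbx15, 1422195_s_at, had the same order of groups. Its values were 7.03 and 6.77 in MEF, 5.77, 5.24 and 5.64 in NPC, and 4.64, 4.13 and 4.14 in ES cells. All 3 comparisons were called for it, at 2.60 in MEF compared with ES cells, 1.25 in NPC compared with ES cells and 1.35 in MEF compared with NPC. Without NPC 1 the comparisons with NPC gave 1.14 over ES cells and 1.47 for MEF over NPC, both called. The suffix _s_at marks a probe set that can report on several transcripts.

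Tbx18, a factor of the front part of each somite, of the epicardium and of the mesenchyme around the ureter, was high in both MEF and NPC. Probe set 1429974_at had log2 values of 7.77 and 7.92 in MEF, 6.66, 8.03 and 7.91 in NPC, and 4.88, 4.39 and 5.34 in ES cells. MEF and NPC overlapped, NPC 1 was the lowest of its group, and ES arrays lay below all others, with ES 3 above the level of silent genes. Tbx18 was 2.97 ± 0.41 log2 units higher in MEF than in ES cells, or 7.84-fold (limma adjusted p = 0.000267). It was 2.66 ± 0.36 higher in NPC than in ES cells, or 6.34-fold (limma adjusted p = 0.000255), and 3.12 without NPC 1. The difference of MEF and NPC was 0.31, with a 95% confidence interval of -0.61 to 1.22 (limma adjusted p = 0.621), and without NPC 1 it was -0.13. An interval of that width does not show equal levels, and without scaling between arrays the difference was 1.16 and called.

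Its other probe set, 1449871_at, gave 6.98 and 6.93 in MEF, 5.51, 6.48 and 6.40 in NPC, and 4.10, 4.29 and 4.57 in ES cells. Here MEF lay above every NPC array, by 0.83 ± 0.30 (limma adjusted p = 0.0548), which was not called. That difference depends on NPC 1 and on the scaling: it was 0.52 and not called without NPC 1, but called at 1.01 without NPC 2, 1.19 with median centring and 1.53 without scaling between arrays. MEF compared with ES cells was called at 2.64 and NPC compared with ES cells at 1.81, or 2.13 without NPC 1. Both probe sets of Tbx18 put NPC 1 lowest among NPC arrays, and both put all NPC arrays above all ES arrays.

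Tbx3, a repressor needed for limb, mammary gland and the conduction tissue of the heart, and known in mouse ES cells as a factor of self-renewal, ran the other way. Probe set 1448029_at had log2 values of 7.21 and 7.21 in MEF, 4.37, 4.42 and 4.57 in NPC, and 8.57, 8.34 and 8.44 in ES cells. The deposited intensities were 207.5 and 207.8 in MEF, 4.31, 4.31 and 6.41 in NPC, and 370.6, 280.1 and 242.0 in ES cells. The 3 groups did not overlap, and NPC was below the level of silent genes on all 3 arrays. Tbx3 fell by 4.00 ± 0.13 log2 units in NPC compared with ES cells (limma adjusted p = 2.94e-08), and by 3.98 without NPC 1. It was 2.75 ± 0.15 higher in MEF than in NPC, or 6.75-fold (limma adjusted p = 8.36e-07), and 2.73 without NPC 1. It was also lower in MEF than in ES cells, at -1.24 ± 0.15 (limma adjusted p = 9.76e-05). That call rests on the scaling: the difference was -0.79 with median centring and -0.47 without scaling between arrays, and neither was called.

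Tbx3 has 5 probe sets, and they did not all report the same. Probe set 1437479_x_at, whose suffix marks possible binding of other transcripts, followed the brightest with 6.48 and 6.65 in MEF, 4.51, 4.10 and 4.55 in NPC, and 7.64, 7.40 and 7.63 in ES cells. It was called lower in NPC than in ES cells (-3.17) and higher in MEF than in NPC (2.18), with -3.25 and 2.25 without NPC 1. In MEF compared with ES cells it was just short of a call at -0.996, and called at -1.01 without NPC 1. Probe set 1445757_at had 4.25 and 4.30 in MEF, 4.07, 4.16 and 4.08 in NPC, and 5.28, 5.08 and 5.77 in ES cells, and was above the level of silent genes on ES 1 and ES 3 alone. It was called at -1.10 in MEF and at -1.27 in NPC, each compared with ES cells, and MEF and NPC differed by 0.17. Without NPC 1 the last values were -1.26 for NPC and 0.16. The call in MEF is lost without ES 3 (-0.92) and without scaling between arrays (-0.91). Probe set 1439567_at was not called in any comparison, with 4.98 and 4.92 in MEF, 4.20, 4.67 and 4.47 in NPC, and 5.08, 5.35 and 4.94 in ES cells, so that MEF and ES cells overlapped. It was -0.55 without NPC 1 in NPC compared with ES cells, and called there at -1.64 with a pseudocount of 1. Probe set 1444594_at was below the level of silent genes on all 8 arrays.

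**Figure D2:**
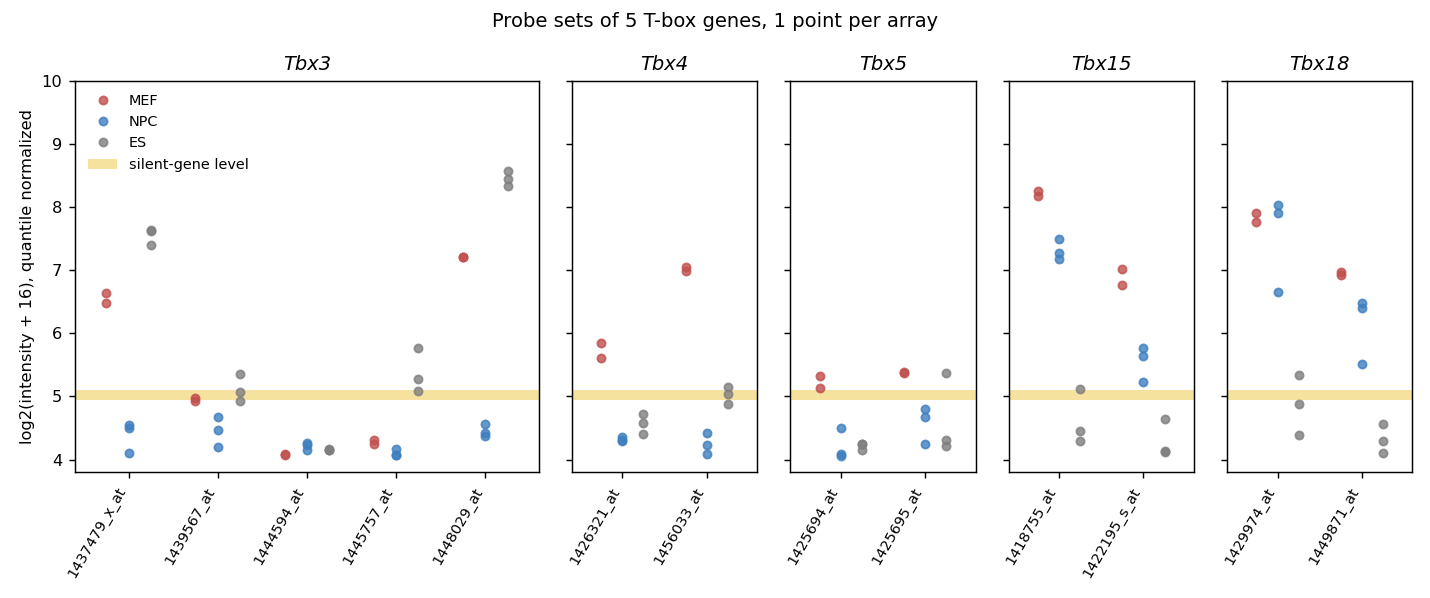
All probe sets of Tbx3, Tbx4, Tbx5, Tbx15 and Tbx18 are plotted as log2(intensity + 16), with 1 point per array and a band for the level of silent genes. Both probe sets of Tbx15 and of Tbx18 put MEF and NPC arrays above ES arrays, both of Tbx4 put MEF arrays on top, and 4 of the 5 of Tbx3 have the highest mean in ES and the lowest in NPC, MEF and ES overlapping in 1439567_at, while 1444594_at stays under the band.

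Levels of different probe sets cannot be set against each other, so the plot of all probe sets is read for the order of groups within each. Over the 19 probe sets, 7 were called in NPC compared with ES cells, 4 higher and 3 lower, where 20.1% of all probe sets were called. MEF compared with ES cells had 9 called, 7 higher and 2 lower, against 22.3% of all. MEF compared with NPC had 6 called, all higher, against 17.5%. Without NPC 1 the counts were 7, 10 and 5, and the share of all probe sets was not determined there. Probe sets of a gene repeat one another, so these counts hold some genes more than once. The calls in NPC compared with ES cells all belong to Tbx3, Tbx15 and Tbx18. With a pseudocount of 64 the dimmer probe sets lost calls: 1445757_at of Tbx3 (-0.42 in MEF and -0.47 in NPC over ES cells), 1426321_at of Tbx4 (0.50 in MEF over ES cells and 0.58 over NPC), 1425694_at of Tbx5 (0.37 and 0.36), 1422195_s_at of Tbx15 (0.49 in NPC over ES cells and 0.82 in MEF over NPC) and 1449871_at of Tbx18 (0.81 in NPC over ES cells). A pseudocount of 1 also ended the call of 1422195_s_at in MEF over NPC (1.73). No member had 1 probe set called higher and another called lower in the same comparison. Taking the mean over a gene's probe sets gave -0.72 for Tbx3 in MEF compared with ES cells, which was not called, and 1.13 for Tbx15 in MEF compared with NPC, which was.

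Tbx4, the T-box factor of the hindlimb bud and of the lung mesenchyme, stood out in MEF. Probe set 1456033_at had log2 values of 7.04 and 6.99 in MEF, 4.09, 4.23 and 4.41 in NPC, and 5.04, 5.15 and 4.89 in ES cells. As deposited, intensities were 179.7 and 172.5 in MEF, 0.936, 2.08 and 4.28 in NPC, and 17.1, 17.7 and 12.1 in ES cells. MEF arrays were well above the level of silent genes, ES arrays were near it and NPC arrays were below it, with no overlap. Tbx4 was 1.99 ± 0.18 log2 units higher in MEF than in ES cells, or 3.98-fold (limma adjusted p = 1.77e-05). It was 2.77 ± 0.18 higher in MEF than in NPC, or 6.84-fold (limma adjusted p = 3.00e-06), and 2.71 without NPC 1. The difference of NPC and ES cells was -0.78 ± 0.16 (limma adjusted p = 0.00317), under the minimum for a call, and -0.70 without NPC 1.

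Its second probe set, 1426321_at, repeated the order with 5.85 and 5.61 in MEF, 4.35, 4.31 and 4.29 in NPC, and 4.72, 4.40 and 4.58 in ES cells. Both MEF comparisons were called for it, at 1.16 over ES cells and 1.41 over NPC, or 1.43 without NPC 1. In NPC compared with ES cells it differed by -0.25, or -0.27 without NPC 1, and was not called.

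A promoter window of 250 bases before the transcript start was read for the members from RefSeq on the build GRCm38.p6, and 5 of the 9 genes matched (Tbx1, Tbx4, Tbx6, Tbx18 and Tbx20), with 2 starts for Tbx1. Tbx4 and Tbx18 are the only called genes among these and are printed. Both were called higher in MEF than in ES cells. Tbx4 was also called in MEF over NPC, and Tbx18 in NPC over ES cells. Capitals mark matches on either strand to the letters of a TATA box (TATAAA), to those of a CCAAT box, and to those of a GC box (GGGCGG).
Tbx4, chr11:85896515-85896764, plus strand: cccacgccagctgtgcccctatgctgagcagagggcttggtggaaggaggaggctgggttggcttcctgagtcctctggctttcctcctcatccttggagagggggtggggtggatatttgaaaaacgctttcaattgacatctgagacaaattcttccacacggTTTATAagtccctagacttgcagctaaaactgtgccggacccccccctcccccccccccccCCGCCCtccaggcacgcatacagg
Tbx18, chr9:87731261-87731510, minus strand: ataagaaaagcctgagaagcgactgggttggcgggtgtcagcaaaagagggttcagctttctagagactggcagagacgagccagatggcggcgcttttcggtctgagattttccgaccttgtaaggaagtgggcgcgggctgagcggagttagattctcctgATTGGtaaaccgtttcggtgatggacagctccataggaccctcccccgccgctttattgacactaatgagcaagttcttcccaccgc
The Tbx4 window holds 1 TATAAA and 1 GGGCGG, both on the opposite strand and with no overlap, and has a GC content of 58.4% with 6 CpG. The Tbx18 window holds 1 CCAAT on the opposite strand and has a GC content of 54.0% with 15 CpG. Over 32851 promoter windows of this length the median was 52.4% GC and 6 CpG. TATAAA was found in 12.4% of them, CCAAT in 33.8% and GGGCGG in 32.7%. The T-box half-site was searched as AGGTGTGA, found in 1.12% of all windows, and as its core GGTGTG, which AGGTGTGA contains, found in 16.3%. Neither was found in the 6 windows of the members, which says only that these letters are not there.

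Tbx5, the T-box factor of the forelimb bud and of the developing heart, was dim throughout, and its 2 probe sets disagreed on the call. The brighter, 1425695_at, had log2 values of 5.38 and 5.39 in MEF, 4.80, 4.24 and 4.67 in NPC, and 4.32, 4.22 and 5.37 in ES cells. ES 3 lay beside the MEF arrays and the other ES arrays lay well below. The difference of MEF and ES cells was 0.75 ± 0.33 (limma adjusted p = 0.101), and without ES 3 it was 1.14 and called. MEF and NPC differed by 0.81 ± 0.33 (limma adjusted p = 0.0849), or 0.93 without NPC 1. Without scaling between arrays both were called, at 1.08 over ES cells and 1.13 over NPC. The dimmer probe set, 1425694_at, had 5.33 and 5.14 in MEF, 4.09, 4.51 and 4.05 in NPC, and 4.15, 4.25 and 4.24 in ES cells, with MEF above all others. It was called higher in MEF by 1.02 ± 0.17 over ES cells (limma adjusted p = 0.000772) and by 1.02 ± 0.17 over NPC (limma adjusted p = 0.00105). These calls sit at the minimum difference and were lost in several alternatives, such as median centring, with 0.95 in both comparisons. The call over NPC is lost without NPC 1 (0.96), NPC 3 (0.94) or MEF 1 (0.90), and the call over ES cells without ES 1 (0.98) or MEF 1 (0.91).

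**Figure D3:**
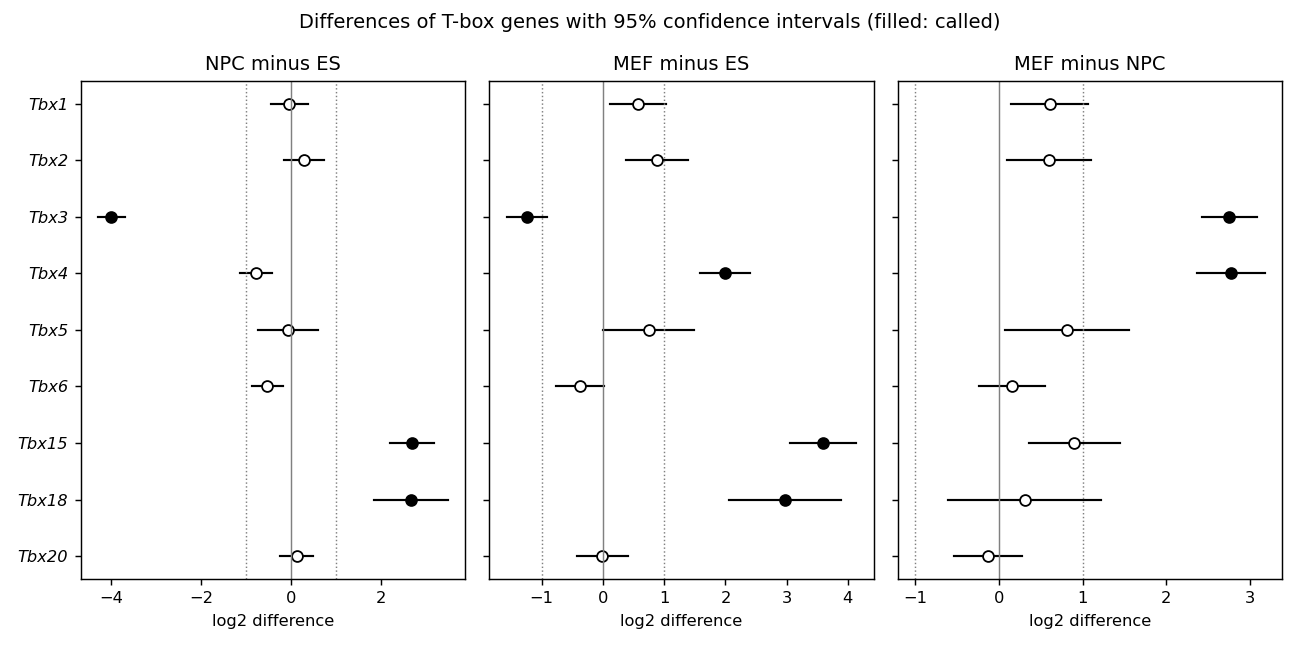
Log2 differences of the 9 T-box genes by their brightest probe set are plotted for NPC minus ES, MEF minus ES and MEF minus NPC, with 95% confidence intervals. Filled points are called, dotted lines mark the minimum difference of 1, and the horizontal scales of the panels differ. Tbx15 and Tbx18 lie above 2 in both comparisons with ES cells, Tbx3 lies at -4.00 in NPC compared with ES cells, and Tbx3 and Tbx4 lie above 2 in MEF compared with NPC.

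The other genes had dim and close values. Tbx2, a repressor of the heart canal and of lung and limb mesenchyme, had 5.28 and 4.85 in MEF, 4.10, 4.82 and 4.49 in NPC, and 4.09, 4.12 and 4.35 in ES cells. It was 0.88 ± 0.22 higher in MEF than in ES cells (limma adjusted p = 0.0105), short of the minimum for a call, and called at 1.07 without MEF 2 and at 1.10 without scaling between arrays. MEF 1 alone was above the level of silent genes. Tbx1, the pharyngeal factor whose human counterpart lies in the region lost in DiGeorge syndrome, had 4.26 and 5.07 in MEF, 4.07, 4.04 and 4.06 in NPC, and 4.06, 4.18 and 4.05 in ES cells. Its difference of 0.57 ± 0.20 in MEF compared with ES cells (limma adjusted p = 0.0495) came with MEF 2 alone above the level of silent genes.

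Tbx6, which in mouse embryos holds paraxial mesoderm away from a neural fate, was highest in ES cells. It had log2 values of 4.66 and 4.90 in MEF, 4.39, 4.70 and 4.77 in NPC, and 5.08, 5.21 and 5.15 in ES cells. All 3 ES arrays were just above the level of silent genes and no other array was. The difference of NPC and ES cells was -0.53 ± 0.16 (limma adjusted p = 0.0213), or -0.42 without NPC 1 (limma adjusted p = 0.0672), and that of MEF and ES cells -0.37 ± 0.17 (limma adjusted p = 0.122), neither of them called. Tbx20, a factor of heart muscle and endocardium, was below the level of silent genes on all 8 arrays with each of its 3 probe sets, and the log2 differences of its brightest, 1453351_at, lay between -0.13 and 0.12, with -0.01 in NPC compared with ES cells without NPC 1. Such values do not show that a transcript is absent, only that the probe sets were not brighter than those of presumably silent genes.

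Tbx2 and Tbx4 lie side by side on chromosome 11, and Tbx3 and Tbx5 on chromosome 5, with 0 protein-coding genes between the members of a pair in the RefSeq annotation. The members of each pair differed in their calls, and no test compared them with each other. On chromosome 11, Tbx4 averaged 7.02 ± 0.04 in MEF (SD, n = 2), 4.24 ± 0.16 in NPC and 5.02 ± 0.13 in ES cells (SD, n = 3 each) and was called, while Tbx2 was not. Tbx2 too was higher in MEF, by 0.88 over ES cells and 0.60 over NPC. On chromosome 5, Tbx3 was called in all 3 comparisons and Tbx5 in none by its brightest probe set. The dimmer probe set of Tbx5, 1425694_at, was called higher in MEF than in both other groups. The protein-coding genes on the outer sides, Bcas3 and Brip1 on chromosome 11 and Med13l and Rbm19 on chromosome 5, were not called in any comparison. Their differences lay between -0.86 (Bcas3 in MEF compared with ES cells) and 0.59 (Rbm19 in MEF compared with NPC, or 0.61 without NPC 1). In some alternatives they passed the thresholds: in MEF compared with NPC, Rbm19 was called at 1.004 with median centring and 1.35 without scaling between arrays, and Med13l at 1.07 without scaling. Bcas3 was called in MEF compared with ES cells at -1.03 without ES 2 and -1.09 with a pseudocount of 1. Of the noncoding genes within or beside the pairs, 2610027K06Rik, 4930413E15Rik and 1700081H04Rik were measured, and none was called.

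**Figure D4:**
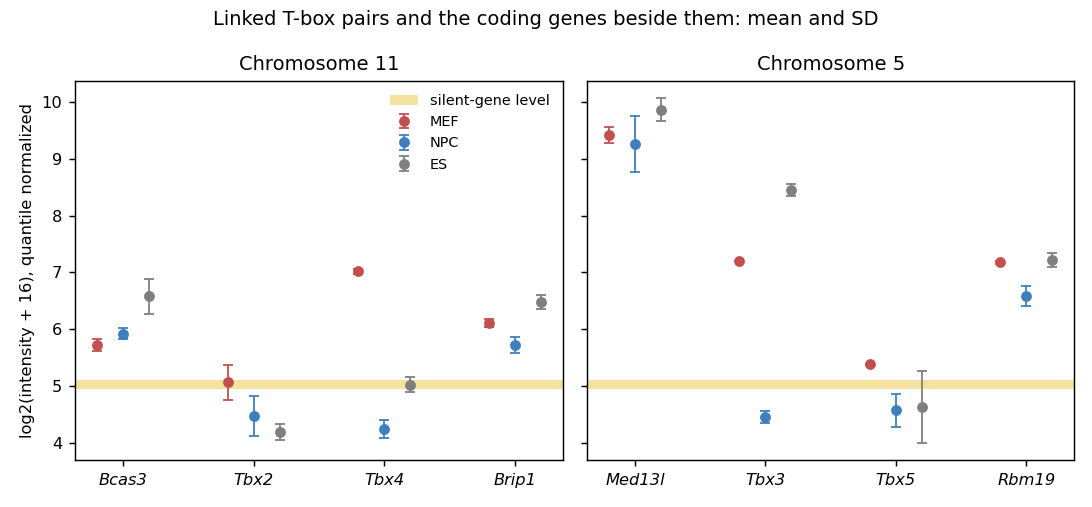
Means and SDs of log2(intensity + 16) are plotted for the linked pairs and the coding gene on each side, in annotation order, for MEF (n = 2), NPC (n = 3) and ES (n = 3), with a band for the level of silent genes. Tbx4 rises well above the band in MEF and Tbx3 in MEF and ES, while the outer genes lie above it in all 3 groups.

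In the plot of linked pairs, the outer genes were above the level of silent genes in each group and none was called over all arrays with quantile normalization. The genes most like each called member were found by the root mean square difference over the 8 arrays, after each gene's log2 values were centred on their own mean. For Tbx3 these were Bcl3 (0.109), Slc12a7 (0.133) and Mmp11 (0.148). For Tbx4 they were Ecscr (0.120), Serpinb9 (0.126) and Ch25h (0.132). Mex3b (0.187), Elk3 (0.201) and Antxr2 (0.207) were nearest to Tbx15, and Magee1 (0.267), Edil3 (0.312) and Tmeff2 (0.316) to Tbx18. Tbx15 and Tbx18 differed from each other by 0.543, which put Tbx18 at rank 103 among the genes nearest to Tbx15, and Tbx15 at rank 87 among those nearest to Tbx18. As the 8 arrays form 3 groups, genes with like group means come out near each other.

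Of other T-box genes, 6 were measured. Eomes, which acts in endoderm and trophoblast, had 4.98 and 4.63 in MEF, 4.69, 5.31 and 4.96 in NPC, and 6.58, 6.46 and 6.34 in ES cells. It was lower in MEF than in ES cells (-1.65) and in NPC than in ES cells (-1.47, or -1.33 without NPC 1). Mga, a T-box protein that also pairs with Max, was lower in MEF (-1.55) and NPC (-1.60, or -1.82 without NPC 1) than in ES cells, with means of 7.90 in MEF, 7.85 in NPC and 9.45 in ES cells, but without scaling between arrays its difference in MEF was -0.75 and not called. By the mean over its probe sets, Mga was not called in either comparison with ES cells. Tbr1, Tbx19, Tbx21 and Tbx22 were not called in any comparison. Between MEF and NPC 0 of the 6 were called by limma, and 0 also passed an unadjusted p below 0.05. Of all genes, 10.5% were called higher and 7.95% lower there, and 22.4% and 23.2% passed the unadjusted p. In the comparisons with ES cells, 12.8% of all genes were called lower in MEF and 12.9% in NPC. The median difference of the 6 was -0.22 in MEF compared with ES cells, -0.14 in NPC compared with ES cells and 0.01 in MEF compared with NPC.

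Factors known to act with T-box proteins were taken as a list of 15 genes, of which 13 were analysed here. In MEF compared with ES cells 3 were higher, namely Hand2 (3.19), Pitx1 (1.98) and Mef2c (1.37), and 1 was lower, Sall4 (-6.66), a zinc finger factor of limb, heart and pluripotent cells. Without ES 2 the count was 7 in place of 4. Pitx1, the hindlimb factor upstream of Tbx4, had 6.43 and 6.33 in MEF, 4.76, 4.15 and 4.27 in NPC, and 4.12, 4.25 and 4.82 in ES cells, so that MEF alone was above the level of silent genes. In NPC compared with ES cells 2 were higher, Mef2c (3.35) and Hand2 (1.06), and 2 lower, Sall4 (-6.90) and Gata6 (-2.32). The call of Hand2, a limb and heart factor, is lost there in several alternatives, for example at 0.86 without NPC 2, and its value is 1.47 without NPC 1. In MEF compared with NPC, Gata6 (2.24), Hand2 (2.13) and Pitx1 (1.99) were higher and Mef2c (-1.98) was lower. Without NPC 1 the differences were 2.22 for Gata6, 1.73 for Hand2, 2.18 for Pitx1 and -2.17 for Mef2c there, and 3.55 for Mef2c, -6.92 for Sall4 and -2.30 for Gata6 in NPC compared with ES cells. The median difference of the list was -0.25 in MEF compared with ES cells, -0.25 in NPC compared with ES cells and -0.06 in MEF compared with NPC. Of all genes, 12.2% were called higher and 12.8% lower in MEF compared with ES cells. These shares were 10.0% and 12.9% in NPC compared with ES cells, and 10.5% and 7.95% in MEF compared with NPC.

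Genes known as targets of T-box factors in other tissues were a list of 16, all measured. Between MEF and ES cells 1 was called, Sox2 (-6.51), which Tbx6 represses in mouse paraxial mesoderm, and the count was 2 without ES 2 or ES 3 and 3 without MEF 1. In NPC compared with ES cells Cdkn2a (2.36) and Dll1 (1.69), a Notch ligand, were higher, and Bmp4 (-3.01), Gja1 (-2.77) and Nppb (-1.43) lower. In MEF compared with NPC, Bmp4 (3.50), Gja1 (3.40) and Nppb (1.78) were higher, and Sox2 (-5.53), Dll1 (-2.66) and Cdkn2a (-2.24) lower. Without NPC 1, NPC compared with ES cells gave 1.72 for Dll1, -3.11 for Bmp4 and -1.34 for Nppb, and Sox2 was called there too (-1.25). MEF compared with NPC then gave 3.60 for Bmp4, 4.35 for Gja1, 1.70 for Nppb, -5.29 for Sox2 and -2.69 for Dll1. Bmp4, a limb and mesoderm signal, Gja1, a gap junction protein, and Nppb, a natriuretic peptide, had their lowest means in NPC. Of the other called targets, Dll1 (7.70) and Cdkn2a (7.80) had their highest means in NPC, and Sox2 had its lowest in MEF (5.54). Gja1 is known as a gene that Tbx2 and Tbx3 repress in the heart. Whether any member acts on these genes here was not tested. Fgf10, the limb bud signal that Tbx4 and Tbx5 turn on, was not called, with means of 4.63 in MEF, 4.65 in NPC and 5.21 in ES cells. The median difference of the list was -0.06 in MEF compared with ES cells, -0.10 in NPC compared with ES cells and -0.06 in MEF compared with NPC. Of all genes, 12.2% were called higher and 12.8% lower in MEF compared with ES cells. These shares were 10.0% and 12.9% in NPC compared with ES cells, and 10.5% and 7.95% in MEF compared with NPC.

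**Figure D5:**
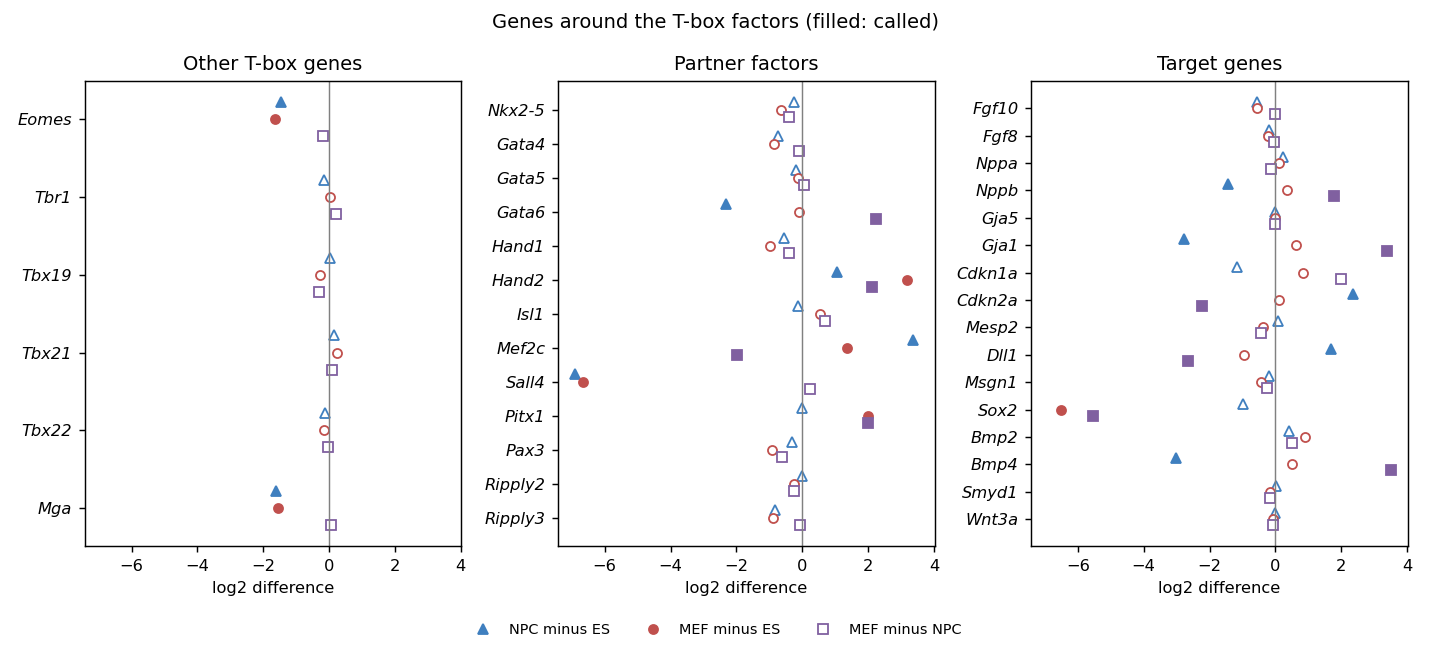
Log2 differences of the other T-box genes, partner factors and target genes are plotted by gene, with triangles for NPC minus ES, circles for MEF minus ES and squares for MEF minus NPC, filled where called. Eomes and Mga lie below 0 in both comparisons with ES cells, Hand2 and Pitx1 lie above 0 in both MEF comparisons, and Bmp4, Gja1 and Nppb lie below 0 in NPC compared with ES cells and above 0 in MEF compared with NPC.

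The plot of the lists also holds genes whose values turn on NPC 1. Cdkn1a and Cdkn2a, cell cycle inhibitors that Tbx2 and Tbx3 are known to repress, differed widely among NPC arrays. Cdkn2a had log2 values of 5.46 and 5.65 in MEF, 6.09, 8.60 and 8.72 in NPC, and 5.48, 5.52 and 5.34 in ES cells, and its difference of NPC and ES cells was 3.24 without NPC 1. Its call in MEF compared with NPC was lost without MEF 1 (-2.11), MEF 2 (-2.30), NPC 2 (-1.86) or NPC 3 (-1.80), and was -3.13 without NPC 1. Cdkn1a had 10.23 and 10.12 in MEF, 11.50, 6.38 and 6.65 in NPC, and 9.18, 9.53 and 9.31 in ES cells. It was not called in any comparison over all arrays (-1.16 in NPC compared with ES cells), but without NPC 1 it was lower in NPC than in ES cells (-2.84) and higher in MEF than in NPC (3.68). Gja1 had 10.15 on NPC 1 against 7.43 and 7.30 on the other NPC arrays, and its difference of NPC and ES cells was -3.72 without NPC 1. For the 9 members by their brightest probe sets, the genes called without NPC 1 were the same in all 3 comparisons.

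Markers of cell types that the cultures could hold also differed between the groups. The 8 fibroblast markers summed to an intensity of 41546 to 41858 in MEF, 115.1 to 121.5 in NPC and 429.0 to 467.1 in ES cells. All 8 were above the level of silent genes in MEF, Pdgfra alone was so in NPC, and in ES cells, which had been grown on fibroblast feeders, 7 were. Skeletal muscle markers summed to 674.6 to 734.0 in MEF, 72.6 to 91.8 in NPC and 1011 to 1180 in ES cells, and 5 of 6 were above that level in MEF, 0 in NPC and 2 in ES cells (Acta1 and Mylpf). Each of the 5 lists of other cell types had its lowest sums in NPC. Cartilage markers were above it in 5 of 5 cases in MEF (463.1 to 475.0), 1 of 5 in NPC (44.6 to 129.7) and 3 of 5 in ES cells (143.0 to 156.9). Macrophage markers were above it in 6 of 6 cases in MEF (961.5 to 989.2), 1 of 6 in NPC (79.8 to 103.1) and 2 of 6 in ES cells (334.5 to 347.8). Muscle markers of the heart were above it in 2 of 7 cases in MEF (154.1 to 178.0), 1 of 7 in NPC (65.4 to 94.7) and 2 of 7 in ES cells (96.1 to 120.2). Their part in the levels of the T-box genes was not tested. In bulk RNA, more cells that express a gene and more RNA per cell cannot be told apart.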

How the data were processed

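RNA had been extracted with Trizol and hybridised to an Affymetrix whole-genome mouse array, per the labels' protocols. The authors deposited linear intensity values, 1 for each probe set of an array. Per the submitters' processing notes, GCOS 1.4 was used. Its algorithm, background and scaling are not given in the sources used here, and the medians of the deposited intensity (19.1 to 31.5) differed between arrays. After 64 control probe sets were left out of 45101, 34945 of 45037 had a single gene, 932 had several and 9160 had none in the array annotation. Gene order and promoters came from RefSeq on GRCm38.p6. A pseudocount of 16 was added before the log2 transform, and quantile normalization followed. Groups were compared with limma 3.58.1 in R 4.3.3, in 1 linear model (all 8 arrays, trended prior variance), where the 2 MEF arrays borrow the spread of the others. Benjamini-Hochberg adjustment ran over the 34945 probe sets. The procedure was tested on simulated data. The members and lists were chosen with earlier results of these data known. Named are all members with every probe set, called genes of the lists (at most the 4 highest and 4 lowest per comparison), the 3 genes of most similar pattern and the neighbours of the linked pairs. Further genes (Cdkn1a, Fgf10 and the genes not called among other T-box genes) were named after their values were seen. T, Tbx10 and Ripply1 are among the listed genes not analysed here. Alternatives were other scalings, pseudocounts, filters, probe set choices, variance models, thresholds, the replicate number as a block and leaving out each array.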

Additional observations from a re-analysis of the deposited data

How the results depend on the processing

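Of the 1074 alternative values of the members' 57 differences over 20 settings, 1026 kept their side of the thresholds, 25 fell below them, 23 passed them and 0 called values reversed. Of the 1026, 994 also kept their direction, and 32 had the opposite sign and were not called in either setting, with sizes up to 0.31. The counts of called members were 3 in NPC compared with ES cells, 4 in MEF compared with ES cells and 2 in MEF compared with NPC. With no scaling between arrays, 5 were called in MEF compared with NPC (Tbx5, Tbx15 and Tbx18 in addition) and 5 in MEF compared with ES cells (Tbx2 and Tbx5 in addition, without Tbx3), and the cause was not tested. With no minimum difference, 5 were called in NPC compared with ES cells, 6 in MEF compared with ES cells and 4 in MEF compared with NPC. The share of all genes called was not determined for the alternatives. The counts of members and of list genes given for them therefore show no trait of the family or of a list. With a minimum of 2, 2 were called in MEF compared with ES cells. Without each array in turn the counts were 3 to 3 in NPC compared with ES cells, 4 to 5 in MEF compared with ES cells and 2 to 2 in MEF compared with NPC. Tbx5 was added without ES 3 and Tbx2 without MEF 2. Where this left 1 MEF array, it was assumed to vary like the other groups. A pseudocount of 1 added calls of Tbx4 in NPC compared with ES cells (-2.28), of Tbx1 (2.13) and Tbx2 (2.60) in MEF compared with ES cells, and of Tbx1 in MEF compared with NPC (2.42). Scaling bears on MEF: without it the median of all genes moved to 0.32 in MEF compared with ES cells and 0.43 in MEF compared with NPC. The share of calls that were higher was then 79.3% and 87.5%, with median centring 65.1% and 74.1%, with a trimmed mean 47.1% and 53.1%, and with quantile normalization 48.9% and 56.9%. Same-numbered arrays did not deviate together from their group means (correlations of -0.027 to 0.048). This cannot tell whether they shared a culture or a day, and the deviations of the 2 MEF arrays are mirror images. With the replicate block 3, 4 and 3 members were called in NPC with ES cells, MEF with ES cells and MEF with NPC, Tbx5 being added in the last. In the lists, the calls in MEF compared with ES cells varied: partner factors went to 9 with a pseudocount of 1 or no minimum difference and 2 with a pseudocount of 64 or a minimum of 2, against 4, and target genes to 3 with no scaling or a pseudocount of 1, 2 with a trimmed mean and 4 with no minimum difference, against 1. Other T-box genes had 1 call, against 2, in both comparisons with ES cells with a pseudocount of 64 or the mean of probe sets, and 0 with a minimum of 2. In the lists a pseudocount of 64 ended calls of Eomes, Hand2, Mef2c, Nppb and Pitx1. For target genes, 5 calls became 7 in NPC compared with ES cells without NPC 1, and 6 became 7 in MEF compared with NPC. Signals near the level of silent genes limit what can be said of Tbx1, Tbx2, Tbx5, Tbx6 and Tbx20.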
